A study of Mus musculus with 2 samples.

Results

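The 9 genes described here encode the lysosomal cathepsins Ctsa, Ctsb, Ctsc, Ctsd, Ctsh, Ctsk, Ctsl, Ctss and Ctsz. They were chosen by symbol among 24984 genes measured by single cell RNA-seq, and all 9 were detected in both libraries. The cells were mononuclear, sorted alive from the hind limbs of dystrophin-deficient mdx mice, a model of Duchenne muscular dystrophy. Ctrl mice had the genotype Pax7 CreERT2/R26YFP; Yy1 +/+; mdx. The dKO mice were Pax7 CreERT2/R26YFP; Yy1 f/f; mdx, so that Cre was driven by Pax7 and tamoxifen deleted Yy1, which encodes a zinc finger factor, in muscle stem cells (MuSCs) and any cells derived from them. Tamoxifen was injected at 100 mg/kg for 5 days at 1.5 months of age, and muscle was taken 1 month later. Each library was made from the pooled muscle of 3 mice, and with 1 library per group the differences below could not be tested or checked against replicates.

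Cathepsins are the proteases with which lysosomes digest proteins taken up from outside the cell or delivered by autophagy. They are made as inactive proenzymes, reach the lysosome mostly through mannose 6-phosphate receptors, and are activated in its acid interior. Most are cysteine proteases (Ctsb, Ctsc, Ctsh, Ctsk, Ctsl, Ctss and Ctsz), whereas Ctsd is an aspartic protease and Ctsa a serine carboxypeptidase. In dystrophic muscle, macrophages clear the debris of degenerating fibres, and cathepsins released from cells can also degrade matrix.

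Positions are given on GRCm38 (GENCODE M21). Ctsa spans chr2:164832873-164841032 on the plus strand and Ctsz chr2:174427493-174439039 on the minus strand. Ctsc spans chr7:88278085-88310888 (plus) and Ctsd chr7:142375911-142388038 (minus). Ctsb lies at chr14:63122462-63145923 (plus), Ctsh at chr9:90054152-90076089 (plus) and Ctsl at chr13:64359337-64370890 (minus). Ctsk (chr3:95499256-95509362) and Ctss (chr3:95526786-95556403) are neighbours on the plus strand of chromosome 3, with 17423 bases between them. Ctsa overlaps Neurl2 and Pltp, Ctsb overlaps Fdft1 and Ctsz overlaps Nelfcd, all on the opposite strand.

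RefSeq promoter windows, from 250 bases before to 50 bases after a start site (GRCm38.p6), were given for 7 of the 9 genes, in 8 windows. Those of Ctsd and Ctsl are shown because both hold CACGTG, the palindromic core bound by Tfeb and its relatives, which control lysosomal genes. The whole Ctsl window lies inside the gene span of GENCODE M21, which on this minus strand begins at 64370890, so its CACGTG is not upstream of that start. The Ctsa window with CACGTG likewise lies inside the span of Ctsa. Those of Ctsk and Ctss are shown because these neighbouring genes were highest in different cell classes below. Capitals mark CACGTG and GAGGAA (or its reverse complement TTCCTC), the latter a core recognized by Ets factors such as the macrophage factor PU.1.
Ctsd, chr7:142387778-142388077, minus strand: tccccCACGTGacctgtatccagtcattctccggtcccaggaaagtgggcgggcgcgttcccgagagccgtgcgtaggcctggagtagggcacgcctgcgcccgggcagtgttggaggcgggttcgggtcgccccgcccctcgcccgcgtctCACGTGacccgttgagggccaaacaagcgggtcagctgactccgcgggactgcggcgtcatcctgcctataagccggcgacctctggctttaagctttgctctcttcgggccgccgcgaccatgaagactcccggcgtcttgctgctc
Ctsl, chr13:64370471-64370770, minus strand: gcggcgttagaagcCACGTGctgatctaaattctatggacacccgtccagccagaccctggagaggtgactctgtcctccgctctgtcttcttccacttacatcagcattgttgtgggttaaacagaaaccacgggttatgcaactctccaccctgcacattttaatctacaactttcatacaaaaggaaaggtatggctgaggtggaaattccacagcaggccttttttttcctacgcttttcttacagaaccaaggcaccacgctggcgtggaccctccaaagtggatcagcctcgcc
Ctsk, chr3:95498960-95499259, plus strand: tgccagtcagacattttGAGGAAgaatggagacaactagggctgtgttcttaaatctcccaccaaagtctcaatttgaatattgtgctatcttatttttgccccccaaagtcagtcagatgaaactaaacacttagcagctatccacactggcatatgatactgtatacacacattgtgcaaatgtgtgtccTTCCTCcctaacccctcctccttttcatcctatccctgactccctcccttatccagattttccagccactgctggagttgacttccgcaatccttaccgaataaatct
Ctss, chr3:95526536-95526835, plus strand: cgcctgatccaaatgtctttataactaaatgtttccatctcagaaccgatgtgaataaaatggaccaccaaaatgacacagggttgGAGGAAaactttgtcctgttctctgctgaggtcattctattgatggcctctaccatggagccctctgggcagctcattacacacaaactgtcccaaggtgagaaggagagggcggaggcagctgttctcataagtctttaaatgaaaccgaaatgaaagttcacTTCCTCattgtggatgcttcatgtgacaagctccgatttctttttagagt
CACGTG was found in windows of Ctsa, Ctsd and Ctsl, and in 7.15% of all 32851 windows. GAGGAA was found, on either strand, in those of Ctsc, Ctsk and Ctss and in 28.3% of all windows. The motif AAGATGGC, bound by Yy1, was in 2.75% of all windows and in none of the 8. These matches describe letters in the windows and do not show binding.

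The Ctrl library held 4527 cells with a median of 7697 unique molecular identifiers (UMIs, tags that count captured RNA molecules), and the dKO library 3483 cells with a median of 7615. After filtering, 4010 Ctrl and 3079 dKO cells were kept and clustered without the cathepsins and 46 related genes, so that the clustering did not use them. Cd68, a related gene, was also among the MO/MP markers by which clusters were named. Monocyte and macrophage-like (MO/MP-like) cells numbered 1422 in Ctrl and 1131 in dKO, fibro-adipogenic progenitor-like (FAP-like) cells 1123 and 1180, endothelial (EC-like) cells 465 and 179, and tenocyte-like cells 145 and 90. Dendritic cell-like, B cell-like and T cell-like cells numbered 87 to 142 per library, and these 7 classes held at least 50 cells in each library. Macrophage genes C1qa and Csf1r were detected in 76.1% to 82.8% of MO/MP-like cells, and Dcn and Col3a1 in 99.6% to 99.9% of FAP-like cells. In MuSC-like cells, Yy1 had 160 CPM (UMIs scaled to 1000000 UMIs of the class) in Ctrl and 4.85 CPM in dKO (369 and 3 UMIs, ratio 0.0304, interval 0.00623 to 0.0894), whereas MO/MP-like cells had 134 and 147 CPM. Levels are CPM and, because UMIs count molecules, were not divided by gene length. Intervals are 95% intervals for counting error, exact Poisson for levels, exact binomial for shares and conditional binomial for ratios. PCR and capture error, variation between cells of a class and differences between mice are not in them.

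Most cathepsin transcripts came from MO/MP-like cells. The 9 genes summed to 21833 CPM (21753 to 21913) there in Ctrl and, in dKO, to 18523 CPM (18432 to 18614), so about 2.18% and 1.85% of the RNA molecules counted in these cells. FAP-like cells had 2692 CPM in Ctrl and 2504 CPM in dKO. Tenocyte-like cells (2868 and 3225 CPM) and dendritic cell-like cells (2677 and 3048 CPM) were close to them, and T cell-like cells had the lowest sums (829 and 769 CPM). In Ctrl, 35.5% of cells but 77.0% of cathepsin UMIs were MO/MP-like, and in dKO 36.7% of cells and 73.9% of UMIs. FAP-like cells held 11.6% in Ctrl and 19.3% in dKO, while their share of cells was 28.0% and 38.3%. Cycling MO/MP-like cells held 6.39% in Ctrl (106 cells) and 2.37% in dKO (36 cells).

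Between MO/MP-like and FAP-like cells, 8 of the 9 genes were at least 1.5-fold higher in MO/MP-like cells and Ctsk was at least 1.5-fold lower, in both libraries. In Ctrl, 22.8% of the 10558 genes counted were higher and 36.8% lower by this measure, and in dKO 24.0% and 36.7% of 10249. The median log2 ratio of the 9 genes was 2.95 in Ctrl and 2.87 in dKO, against -0.23 and -0.20 over all genes counted.

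**Figure D1:**
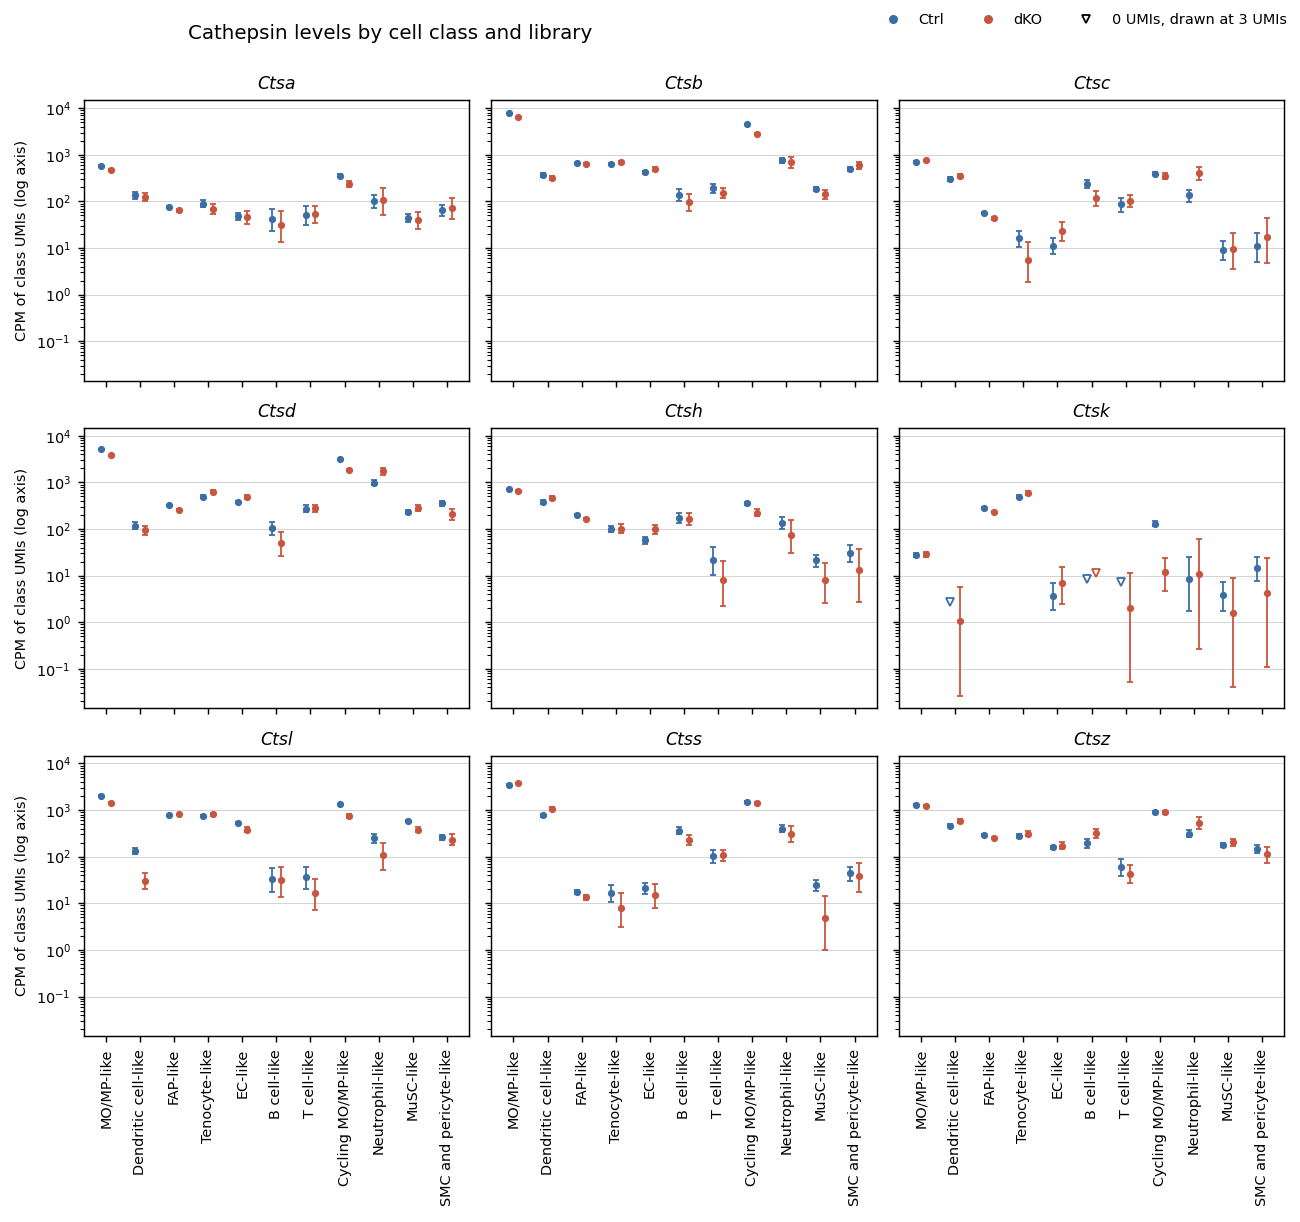
Levels of the 9 cathepsins as CPM of class UMIs (log axis) in 11 cell classes, for Ctrl (blue) and dKO (red), with exact Poisson 95% intervals and open triangles at 3 UMIs for classes with 0 UMIs. The panels of 8 genes peak in MO/MP-like cells and the Ctsk panel in tenocyte-like and FAP-like cells, and the 2 libraries lie far apart at some points of classes with few cells or UMIs, such as Ctsk in cycling MO/MP-like cells (130 and 11.7 CPM).

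Ctsb, a cysteine protease with both endopeptidase and carboxydipeptidase activity, was the highest of the 9 in MO/MP-like cells, at 7826 CPM in Ctrl (7778 to 7874) and 6337 CPM in dKO (6284 to 6391). FAP-like cells had 666 and 645 CPM and tenocyte-like cells 631 and 691 CPM. At each cell's own depth it had at least 1 UMI in 98.8% of Ctrl MO/MP-like, 94.8% of FAP-like and 93.1% of tenocyte-like cells. B cell-like cells were lowest in both libraries, at 138 and 96.7 CPM. Ctsd, which also activates other proenzymes, had 5104 CPM in Ctrl MO/MP-like cells (5065 to 5143) and 3804 CPM in those of dKO (3763 to 3846). Its next highest levels in classes outside the MO/MP lineage were in neutrophil-like cells (994 and 1717 CPM, from 99 and 36 cells) and tenocyte-like cells (494 and 636 CPM). The 19 MO/MP marker genes summed to 8214 and 8974 CPM in the neutrophil-like cells, and their part in the Ctsd level was not tested. Dendritic cell-like cells had only 119 and 93.4 CPM of Ctsd, below FAP-like cells (323 and 263 CPM).

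Ctsl, a broad endopeptidase that also acts on elastin and collagen, was spread over more classes than Ctsb and Ctsd. MO/MP-like cells had 2038 CPM in Ctrl (2014 to 2063) and 1440 CPM in dKO (1415 to 1466). FAP-like cells had 775 and 817 CPM and tenocyte-like cells 749 and 815 CPM, and the intervals of these neighbouring classes overlapped in both libraries. MuSC-like cells had 589 and 381 CPM and EC-like cells 531 and 381 CPM. MO/MP-like cells held 57.8% of Ctsl UMIs in Ctrl and 44.4% in dKO, where FAP-like cells held the larger share (48.7%, against 26.9% in Ctrl).

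Ctss, an elastase active at neutral pH that processes the invariant chain of MHC class II, was highest in immune classes. MO/MP-like cells had 3523 CPM in Ctrl (3491 to 3556) and 3779 CPM in dKO (3738 to 3820), and held 91.2% and 93.5% of all Ctss UMIs. Dendritic cell-like cells had 769 and 1075 CPM, B cell-like cells 359 and 232 CPM and T cell-like cells 103 and 107 CPM. FAP-like cells had 17.5 and 13.4 CPM and tenocyte-like cells 16.7 and 7.90 CPM, so the range over the 7 classes was wider than for Ctsb. Ctss was detected in 18.5% of Ctrl FAP-like cells at their own depth, and in 3.30% once every cell was thinned to 2000 UMIs. Free RNA from lysed cells can add transcripts to all droplets. Its composition was not measured, and the ratio of Ctss to Ctsb over all kept cells is used below in its place, as an assumption. In Ctrl, Ctss stood at 0.403 UMIs per Ctsb UMI over all kept cells but at 0.0262 in FAP-like cells. If all Ctss of FAP-like cells came from free RNA of that composition, the Ctsb that came with it would be 43.3 CPM in Ctrl and 26.5 CPM in dKO, which is 6.51% and 4.11% of their Ctsb. The part of free RNA in the Ctsb of FAP-like cells was not tested. In T cell-like cells, Ctss stood at 0.532 UMIs per Ctsb UMI in Ctrl and 0.703 in dKO, against 0.403 and 0.506 over all kept cells, and the 19 MO/MP marker genes summed to 765 and 951 CPM, so their Ctss and Ctsb could not be told apart from free RNA.

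Ctsk, the collagenase best known from osteoclasts, was highest in tenocyte-like and FAP-like cells, which had little Ctss. Tenocyte-like cells had 492 CPM in Ctrl (458 to 528) and 588 CPM in dKO (538 to 641), FAP-like cells 287 CPM (279 to 296) and 237 CPM (229 to 244), and MO/MP-like cells 27.7 CPM (24.9 to 30.7) and 29.0 CPM (25.6 to 32.9). It was detected in 90.3% of Ctrl tenocyte-like, 82.2% of FAP-like and 11.8% of MO/MP-like cells. The FAP-like class contained 76.2% of Ctsk UMIs in Ctrl and 83.2% of those in dKO. In the 142 Ctrl and 87 dKO B cell-like cells it had 0 UMIs, with upper interval limits of 10.2 and 14.3 CPM. Few MO/MP-like cells carried it, and 3 cells held 32.4% of its 250 UMIs in dKO MO/MP-like cells.

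Ctsc, the dipeptidyl peptidase that activates granule serine proteases, had 708 and 762 CPM in MO/MP-like cells, 300 and 347 CPM in dendritic cell-like cells and 238 and 120 CPM in B cell-like cells. FAP-like cells had 56.2 and 43.0 CPM, and EC-like and tenocyte-like cells under 25 CPM in both libraries. Ctsh, an aminopeptidase, had 723 and 669 CPM in MO/MP-like cells, 386 and 470 CPM in dendritic cell-like cells and 200 and 166 CPM in FAP-like cells. T cell-like cells had 9 and 4 UMIs of it. Ctsz, a carboxypeptidase, reached 1302 and 1233 CPM in MO/MP-like cells, 467 and 585 CPM in dendritic cell-like cells and 292 and 255 CPM in FAP-like cells. Ctsa, which protects the lysosomal enzymes Neu1 and Glb1 in a complex, had 581 and 470 CPM in MO/MP-like cells and 30.9 to 135 CPM in the other 6 large classes.

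The median depth of a cell differed by class, from 2318 UMIs in Ctrl B cell-like cells to 7745 in MO/MP-like and 12155 in FAP-like cells, so shares of cells with a UMI were also compared with each cell thinned to 2000 UMIs and shallower cells left out. In Ctrl, Ctsb was then detected in 97.3% of MO/MP-like, 74.3% of FAP-like and 27.8% of B cell-like cells. Ctss was detected in 93.7% of MO/MP-like, 78.5% of dendritic cell-like and 43.3% of B cell-like cells, against 3.30% of FAP-like and 3.77% of EC-like cells. Ctsk was detected in 58.5% of tenocyte-like and 41.4% of FAP-like cells, against 47 of 1273 MO/MP-like cells and 0 of the B cell-like cells. Besides Ctsk, Ctsl was the gene detected in a larger share of FAP-like (76.6%) than of MO/MP-like cells (67.4%), although its CPM was higher in MO/MP-like cells. The median MO/MP-like cell of Ctrl carried 37 Ctsb UMIs (quartiles 13 and 98) and 4 Ctsl UMIs (1 and 12) at its own depth, and that of dKO 30 (11 and 62) and 4 (1 and 11).

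The make-up of the cathepsin pool differed by class. Ctsb and Ctsd made up 35.8% and 23.4% of it in Ctrl MO/MP-like cells. Ctsl was the largest part in FAP-like cells (28.8% in Ctrl and 32.6% in dKO), MuSC-like cells (45.5% and 35.3%) and tenocyte-like cells (26.1% and 25.3%). It also led in Ctrl EC-like cells (32.6%), whereas Ctsb led in those of dKO (29.0%). Ctss led in dendritic cell-like cells (28.7% and 35.3%), and Ctsk reached 17.2% and 18.2% in tenocyte-like cells against 0.127% and 0.157% in MO/MP-like cells. B cell-like pools rest on 465 and 270 UMIs, and Ctss (28.0%) led in Ctrl but Ctsz (30.4%) in dKO.

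**Figure D2:**
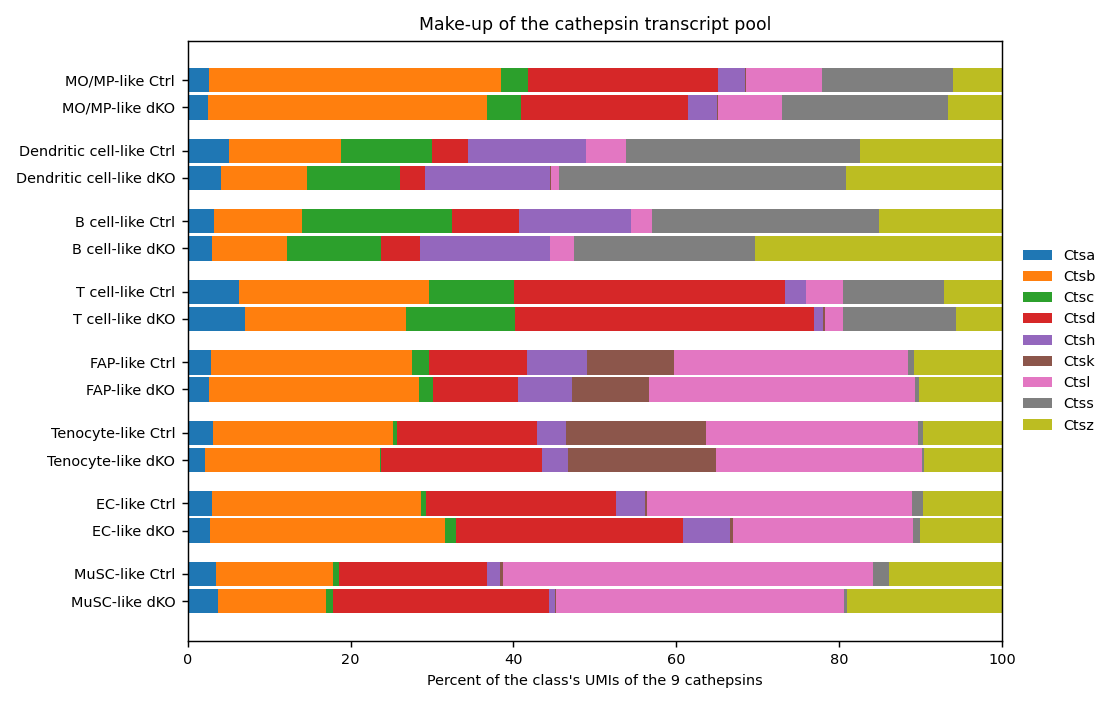
Share of each cathepsin in the summed UMIs of the 9 genes, in percent, for 8 cell classes and both libraries (bars add to 100). Ctsb and Ctsd fill most of the MO/MP-like bars, Ctss is widest in dendritic cell-like bars, and Ctsk takes a clear part of the FAP-like and tenocyte-like bars, at most 18.2%.

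MO/MP-like cells fell into 5 clusters, and the summed cathepsin level varied more among these than between libraries. The summed level in Ctrl ran from 8930 CPM in the Slpi-led cluster, which held the monocyte genes, to 29766 CPM in the Rnf128-led cluster, which held Spp1 and Gpnmb, a ratio of 3.33. In dKO the same clusters were lowest and highest, at 9780 and 25325 CPM. The Rnf128-led cluster was highest for Ctsb (10440 and 8987 CPM), Ctsd (7956 and 6196 CPM) and Ctsl (4935 and 3489 CPM). Its Ctsl was above that of every other MO/MP-like cluster, which ranged from 677 to 1322 CPM over both libraries. The Apoe-led cluster, the one with most cells, was highest for Ctss (4795 and 5144 CPM) and Ctsh (1059 and 982 CPM). Ctsc showed another order, highest in the Fcna-led cluster of resident macrophage genes (1592 and 1255 CPM) and lowest in the Rnf128-led cluster (239 and 290 CPM). The Ear2-led cluster had high Ctsz (1615 and 1555 CPM) beside low Ctsa (410 and 303 CPM). Ctsl was also uneven from cell to cell: the 10% of MO/MP-like cells with most of it held 68.4% of all Ctsl UMIs of the class in Ctrl and 56.8% in dKO, against 38.4% and 37.8% for Ctsb.

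**Figure D3:**
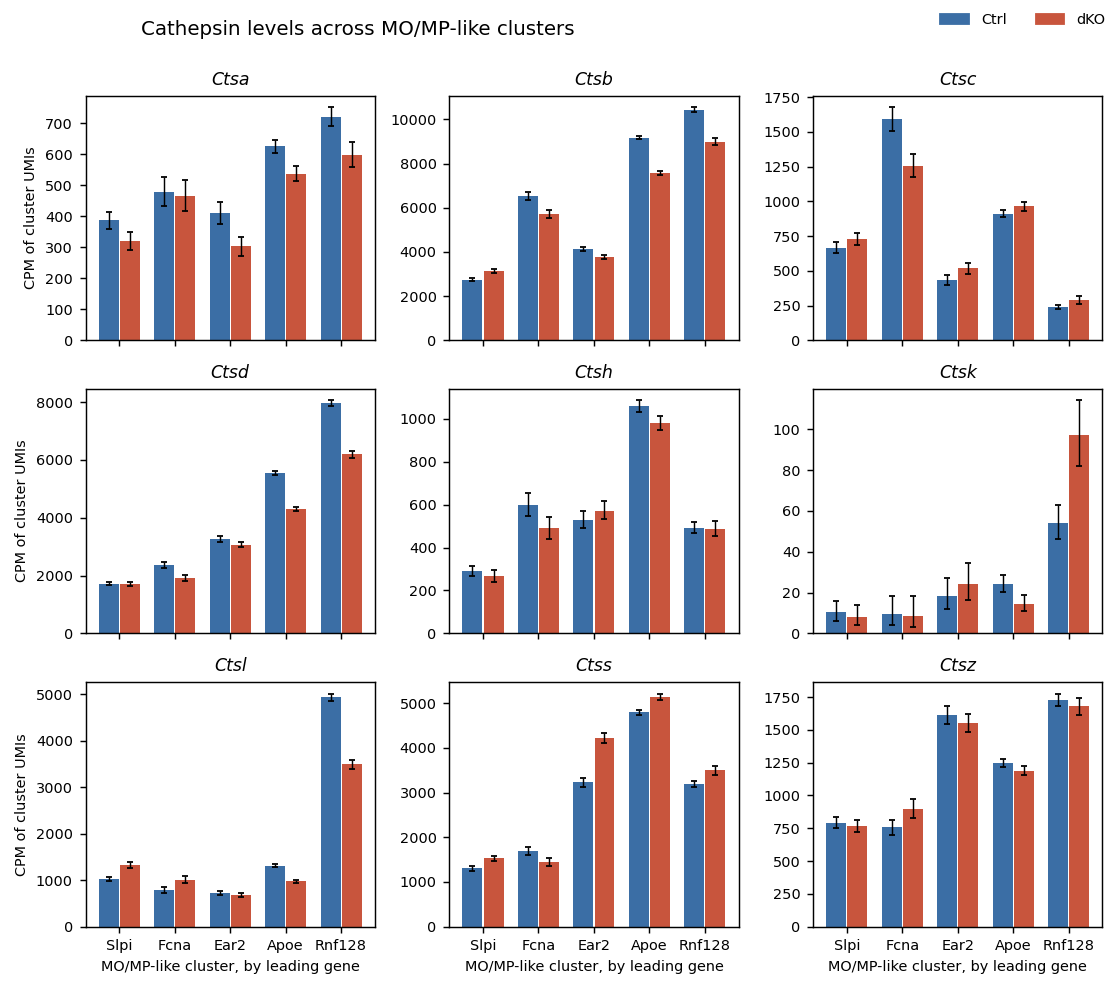
Levels of the 9 cathepsins as CPM of cluster UMIs (linear axes from 0, 1 scale per panel) in the 5 MO/MP-like clusters named by their leading gene, for Ctrl (blue) and dKO (red), with exact Poisson 95% intervals. Ctsl stands out in the Rnf128-led cluster, Ctsc in the Fcna-led cluster and Ctsh in the Apoe-led cluster, in both libraries.

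Stromal and endothelial clusters differed as well. Among 4 FAP-like clusters, Ctsk was highest in the Col6a6-led cluster (379 and 349 CPM) and lowest in the Cxcl5-led cluster (140 and 124 CPM), which also held cell cycle genes. Ctsl was highest in the Efhd1-led cluster (1079 and 1020 CPM), which held Pi16 and Dpp4. Within EC-like cells, the Cytl1-led cluster, with arterial genes, had 870 and 1109 CPM of Ctsd and 220 and 216 CPM of Ctsh. The capillary Gpihbp1-led cluster had only 276 and 337 CPM of Ctsd and 14 and 1 UMIs of Ctsh, but the most Ctsl (649 and 442 CPM). These clusters had 64 and 32 cells (Cytl1-led) and 293 and 98 cells (Gpihbp1-led), and 3 cells held 35.8% of the 67 Ctsh UMIs of the Ctrl Cytl1-led cluster.

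Between dKO and Ctrl, the summed cathepsin level of MO/MP-like cells had a ratio of 0.848 (0.843 to 0.854), a log2 ratio of -0.24. The part of single genes was uneven. Ctsl had the lowest ratio at 0.707 (0.692 to 0.722), then Ctsd at 0.745 (0.736 to 0.755), Ctsa at 0.808 (0.778 to 0.840) and Ctsb at 0.810 (0.801 to 0.818). Ctsh (0.924) and Ctsz (0.947) were closer to 1, Ctss (1.07) and Ctsc (1.08) slightly above it, and the interval of Ctsk (0.889 to 1.24) included it. The level of 0 of the 9 genes differed by 1.5-fold or more, where 4.32% of the 8706 genes counted were higher and 2.66% lower by that much. The median log2 ratio was -0.11 over the 9 genes and 0.0022 over all genes counted. Weighting the dKO clusters to their share in Ctrl moved the log2 ratio of the sum to -0.16, and taking the mean of each cell's own CPM also gave -0.16. Under that mean Ctsl moved from -0.50 to -0.16, and Ctsc from 0.11 to -0.0277, as it did when thinned (-0.0279).

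The ratio of Ctsl was not alike over the MO/MP-like clusters. It was 0.38 on the log2 scale in the Slpi-led and 0.36 in the Fcna-led cluster, and -0.42 in the Apoe-led and -0.50 in the Rnf128-led cluster. Ctsd, in contrast, ranged from -0.37 in the Apoe-led to -0.01 in the Slpi-led cluster, where its interval (-0.08 to 0.07) included 0. Ctsa ranged from -0.44 in the Ear2-led to -0.04 in the Fcna-led cluster, where its interval (-0.26 to 0.17) also included 0. Ctss was above 0 in 4 clusters (0.10 to 0.39) and -0.23 in the Fcna-led cluster.

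In FAP-like cells 8 of the 9 genes had a log2 ratio below 0, from -0.39 for Ctsc to -0.05 for Ctsb, and Ctsl stood at 0.08. The signs of Ctsb and Ctsl did not hold under every alternative: Ctsb was 0.0620 with no doublets removed, and Ctsl was -0.0029 by the mean of each cell's own CPM and -0.0196 when thinned. Of the 9, 0 differed by 1.5-fold, against 2.72% of 10447 genes higher and 2.76% lower, and the median was -0.26 against -0.06 over all genes counted. Ctsk had a ratio of 0.824 (0.790 to 0.860), Ctsd of 0.813 (0.780 to 0.846) and Ctsh of 0.832 (0.791 to 0.876). The sum had a ratio of 0.930 (0.918 to 0.943). The Ctss ratio of these cells, -0.38 from 279 and 223 UMIs, turned to 0.82 when no doublets were removed. The 19 MO/MP marker genes then summed to 418 and 663 CPM in FAP-like cells in place of 275 and 326 CPM, and their part in the result was not tested.

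Other classes rest on fewer UMIs. In dendritic cell-like cells 1 of 8 genes counted, Ctsl, was lower by over 1.5-fold (133 to 30.4 CPM, 145 and 29 UMIs, log2 ratio -2.12) where 3.30% of 2572 genes were, and 3 cells held 52.4% of its Ctrl UMIs. With no doublets removed this log2 ratio was -1.41. None of the 8 was higher by that much, against 6.80%, though Ctss had a ratio of 1.40 (1.27 to 1.53). In EC-like cells 1 of 6, Ctsh, was higher (57.4 to 98.7 CPM, 153 and 86 UMIs, log2 ratio 0.78) against 4.77% of 4736 genes, and 0 were lower against 6.76%. The Cytl1-led cluster held 64 of the 465 Ctrl and 32 of the 179 dKO EC-like cells, and the log2 ratio of Ctsh weighted to the Ctrl cluster make-up was 0.24. Within another EC-like cluster, led by Selp, the Ctsh ratio was 1.54 (1.04 to 2.25, 72 and 47 UMIs). It was 0.982 (0.642 to 1.48) in the Cytl1-led cluster and 0.315 (0.00744 to 2.07, 14 and 1 UMIs) in the Gpihbp1-led cluster. In B cell-like cells, Ctsz (log2 ratio 0.71, 70 and 82 UMIs) was higher, against 3.53% of 737 genes, and Ctsc (-0.99) and Ctss (-0.63) were lower, against 3.26%, of 4 counted. For Ctsc, 3 cells held 39.5% of the 86 UMIs in Ctrl. The 19 MO/MP marker genes summed to 851 CPM in Ctrl and 627 CPM in dKO B cell-like cells, and their part in these ratios was not tested. Tenocyte-like cells had 0 of 7 past 1.5-fold (2.96% of 3147 genes higher, 3.37% lower), with Ctsd at 0.37 and Ctsk at 0.26 on the log2 scale. The Ctsd ratio was -0.05 without the 1% of cells with most Ctsd UMIs in each library. In T cell-like cells 0 of 2 genes counted passed (5.07% higher and 2.24% lower among 1204 genes). The cycling MO/MP-like cells, with 36 cells in dKO, had a ratio of 0.681 (0.660 to 0.701) for the sum of the 9 genes. Their 19 MO/MP marker genes summed to 12356 CPM in Ctrl and 7318 CPM in dKO, whereas those of MO/MP-like cells summed to 32139 and 32856 CPM, and their part in the result was not tested. Cycling MO/MP-like cells had 130 CPM of Ctsk in Ctrl and 11.7 CPM in dKO, but 3 cells held 59.8% of the 244 Ctrl UMIs.

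**Figure D4:**
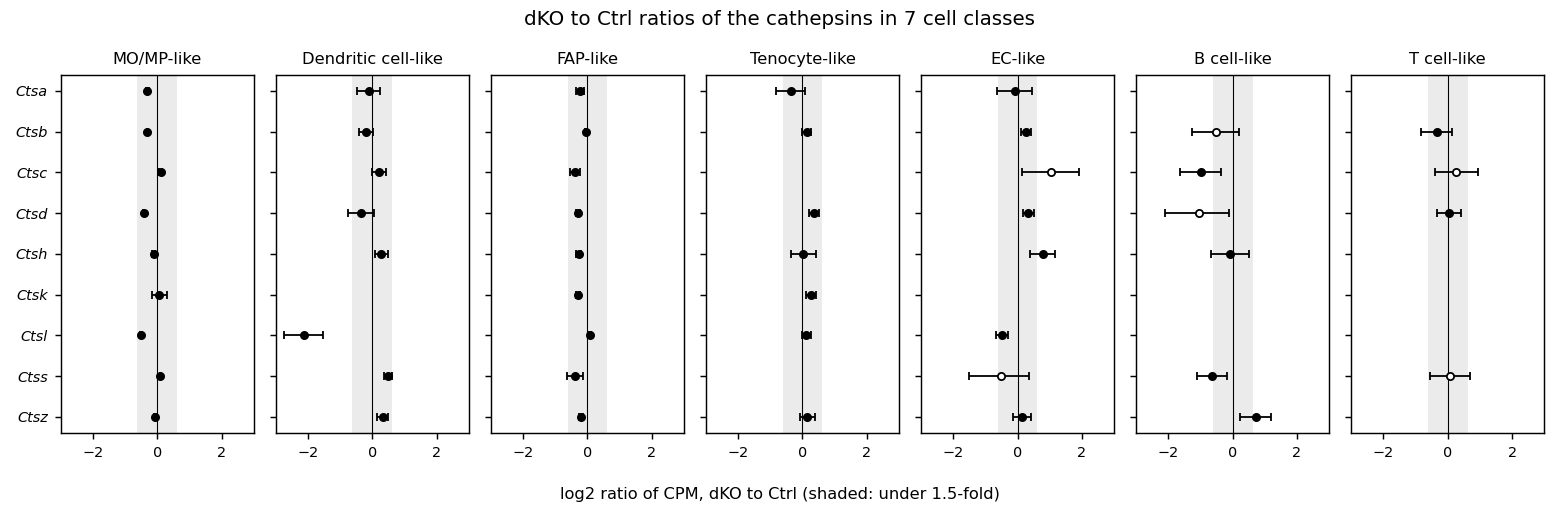
log2 ratios of CPM, dKO to Ctrl, for the 9 cathepsins in the 7 classes with at least 50 cells per library, with 95% intervals for counting error (filled: at least 100 UMIs over both libraries, open: 50 to 99, fewer not drawn). The points of MO/MP-like and FAP-like cells lie within the shaded range of under 1.5-fold, and Ctsl in dendritic cell-like cells lies farthest out, at -2.12.

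Over all kept cells, the sum was 9080 CPM in Ctrl and 7098 CPM in dKO, a ratio of 0.782 (0.778 to 0.786), lower than within MO/MP-like or FAP-like cells. Ctsd had the lowest ratio of the 9 (0.660) and Ctsk the highest (1.05). In such a pooled value, a change in the number of cells of a type and in the RNA per cell cannot be told apart. The share of FAP-like cells, the class with most Ctsk UMIs, was 28.0% in Ctrl and 38.3% in dKO.

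Of 46 genes that work with the cathepsins, 33 were counted in MO/MP-like cells and 34 in FAP-like cells, and 1 differed by 1.5-fold in each, lower in dKO, where 2.66% and 2.76% of all genes counted were lower by that much. In MO/MP-like cells it was the sorting receptor Sort1, lower in dKO (19.9 to 11.2 CPM), and in FAP-like cells the lysosomal transcription factor Tfeb (11.6 to 7.34 CPM, 186 and 122 UMIs). With a minimum of 20 UMIs in place of 100, 3 of 39 were higher and 2 lower in MO/MP-like cells, against 6.37% and 6.42% of all genes counted. In FAP-like cells, 0 of 36 were then higher and 2 lower, against 4.47% and 5.79%. The median log2 ratio of the 13 lysosomal membrane proteins and hydrolases was -0.27 in MO/MP-like cells and -0.13 in FAP-like cells, against 0.0022 and -0.06 over all genes counted, with 0 of 13 past 1.5-fold in either class. Psap, the precursor of the saposins, had 7509 and 5313 CPM in MO/MP-like cells and 564 and 509 CPM in FAP-like cells. Cst3, the secreted inhibitor of cysteine cathepsins, had 2665 and 2741 CPM in MO/MP-like, 2154 and 2256 CPM in FAP-like and 11066 and 12235 CPM in dendritic cell-like cells. Cstb, the cytosolic inhibitor, had 958 and 870 CPM in MO/MP-like cells, and Lgmn, which processes several procathepsins, 1657 and 1686 CPM. The invariant chain gene Cd74, a substrate of Ctss, had 4682 and 5745 CPM in MO/MP-like cells and 25 and 23 CPM in FAP-like cells. Tfeb, Tfec, Tfe3 and Mitf had a median log2 ratio of 0.05 in MO/MP-like cells.

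The genes whose log2 levels were most alike to each cathepsin were sought over 14 points, the 7 large classes in 2 libraries, among 12557 genes. These points share libraries and depth, and with so many genes some high correlations are found for any pattern, so they are given as a description. Ctsb was most like Lamp1 (Pearson's r = 0.968), a lysosomal membrane protein, then Atp6v1a and Ap2m1. Ctsc was nearest to Ctss (0.948), then Lat2 and Tkt, and Ctss itself to Dpep2 (0.977), Rgs18 and Fgr. Ctsh and Ctsz were nearest to each other (0.959), followed by Stx8 and Trappc1 for Ctsh and Hexa and Gpr137b for Ctsz. Ctsa was nearest to Creg1 (0.974), Stra6l and Psmb6, and Ctsd to Selenop (0.954), Wwp1 and Mocos. Ctsk was nearest to Gpr176 (0.978), Dync2li1 and Fam110b, and Ctsl to Idh2 (0.969) and Lpl. Between Ctsk and its neighbour Ctss r was -0.487.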

How the data were processed

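The authors sorted live mononuclear cells, prepared droplet libraries on the 10x Chromium system and deposited matrices of UMI counts for the barcodes called as cells. The count matrices, per the file headers, came from software version 3.0.2, while the submitters' processing notes name Cell Ranger 7.0.0, Seurat 4.3.0 and the build mm10. Total counts were 45556596 in Ctrl and 33815155 in dKO, over 24984 symbols, of which 0 are mitochondrial and 24458 matched GENCODE M21. Of all barcodes, 7 occur in both libraries, 6 of them kept.

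Cells with at least 500 genes were kept (4335 Ctrl and 3329 dKO). The study gives the same 2 numbers for cells after doublet removal. Scrublet (scanpy 1.11.5) with 30 components called only 4 and 14 doublets by its own threshold, so cells were ranked by score and the top 7.5% left out of each library (325 and 250). Libraries were integrated in Seurat 5.3.0 (R 4.3.3) on 2000 variable genes less the cathepsins and 46 related genes, with 40 dimensions, and clustered at a resolution of 0.8. Clusters were named "like" from 18 marker lists (175 genes, 170 in the files), with at least 3 markers 2-fold or more above the median other cluster. A cluster of 34 Ctrl and 19 dKO cells with perineurial and Schwann cell genes was left unnamed.

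UMIs were summed per class and library and divided by the class total. A gene was counted in a comparison at 100 UMIs or more over both libraries, and 1.5-fold was the limit used to call a difference, by size alone. The text names the 9 cathepsins, Yy1, related genes past 1.5-fold with Cst3, Cstb, Lgmn, Psap and Cd74 (other related genes were named after their values were seen), and for each cathepsin the 3 genes most alike on log2(CPM + 1), of which 1 is not reported here. The members, gene lists, motifs and tests were chosen with earlier results of these data known. Alternatives changed doublet removal, the cell filter, the variable genes, integration, resolution, normalization, dominant cells, depth and the UMI minimum.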

Additional observations from a re-analysis of the deposited data

Results flagged for a closer look

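Classes were compared here if they held at least 50 cells in each library, and genes at 100 UMIs or more over both libraries. Within these limits, the dKO to Ctrl ratio of 8 genes had an interval above 1 in some class and below 1 in another. On the log2 scale, the highest and the lowest such ratios were 2.20 apart for Ctsl (FAP-like above, dendritic cell-like below), 1.11 for Ctss (dendritic cell-like above, B cell-like below) and 1.09 for Ctsc (MO/MP-like above, B cell-like below). The dendritic cell-like Ctsl ratio behind the first gap was -2.12, and -1.41 with no doublets removed, and the FAP-like one changed sign when cells were thinned or averaged, as did the MO/MP-like Ctsc ratio. The tenocyte-like Ctsd ratio was -0.0521 without the 1% of cells with most UMIs. The gap was 1.05 for Ctsh (EC-like above, FAP-like below), 0.909 for Ctsz (B cell-like above, FAP-like below) and 0.790 for Ctsd (tenocyte-like above, MO/MP-like below). It was 0.562 for Ctsb (EC-like above, MO/MP-like below) and 0.536 for Ctsk (tenocyte-like above, FAP-like below). Some ratios outside these limits lay farther out. The log2 ratio of Ctss was -2.35 in MuSC-like cells (57 and 3 UMIs). That of Ctsc was 1.57 in neutrophil-like cells (48 and 37 UMIs) and -1.51 in tenocyte-like cells (25 and 5 UMIs).

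Among MO/MP-like clusters the gap was 1.58 for Ctsk (Rnf128-led above, Apoe-led below) and 0.878 for Ctsl (Slpi-led above, Rnf128-led below). Ctsc (0.623, Rnf128-led above, Fcna-led below) and Ctss (0.620, Ear2-led above, Fcna-led below) followed. For Ctsb it was 0.469 (Slpi-led above, Apoe-led below) and for Ctsz 0.317 (Fcna-led above, Apoe-led below). In dKO, 3 cells held 47.0% of the 149 Ctsk UMIs of the Rnf128-led cluster, and the log2 ratio of Ctsk over all MO/MP-like cells moved from 0.07 to -0.51 without the 1% of cells with most of its UMIs. These differences were not tested, since each group has 1 library, and the intervals behind them cover counting error only.

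Outside the cells analysed, the 192 Ctrl and 154 dKO cells with under 500 genes also held cathepsin UMIs. The 9 genes summed to 4866 CPM (682 UMIs) in those of Ctrl and 5780 CPM (660 UMIs) in those of dKO.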

How the results depend on the processing

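No paired analysis was possible because each group has 1 library. Without doublet removal, the summed level of Ctrl MO/MP-like cells was 21528 CPM in place of 21833, its log2 ratio -0.219 in place of -0.237 and the share of cathepsin UMIs in MO/MP-like cells 73.9% in place of 77.0%. Taking the mean of each cell's own CPM moved that log2 ratio to -0.164, thinning to 2000 UMIs to -0.178, and weighting to the Ctrl cluster make-up, an alternative added after seeing the data, to -0.164. The share was 77.4% with cells of at least 200 genes and 1000 UMIs and 77.3% at a resolution of 0.4, which also lowered the ratio of the highest to the lowest MO/MP-like cluster from 3.33 to 2.94. Related genes past 1.5-fold in MO/MP-like or FAP-like cells numbered 2 at 100 UMIs, both lower in dKO, and 7 at 20 UMIs, 3 higher and 4 lower. Some log2 ratios whose counting interval lay to one side of 0 changed sign. Ctsb in FAP-like cells was 0.0620 without doublet removal, 0.0109 scaled to the median ratio and 0.0024 weighted to the Ctrl make-up, and Ctss there 0.82 without doublet removal. Ctsc in MO/MP-like cells was -0.0277 by the mean per cell and -0.0279 thinned, Ctsl in FAP-like cells -0.0029 and -0.0196, and Ctsd in tenocyte-like cells -0.0521 without the 1% of cells with most UMIs. Of ratios whose interval included 0, Ctsk in MO/MP-like cells moved from 0.07 to -0.51 without that 1% of cells, and Ctsb in tenocyte-like cells from 0.13 to -0.35 with the 200-gene filter. The cause was not tested. Of 45 ratios, all 45 stayed within their counting intervals with no integration, at a resolution of 0.4 and with the cathepsins among the variable genes. When thinned, 29 did so. An interval that includes 0 allows a change of sign, so staying within it does not mean that the direction was kept. Depth limits the small classes, where 29 UMIs or fewer stand behind some values.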

Other observations

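The 325 Ctrl and 250 dKO cells removed as doublets held 29781 and 23129 cathepsin UMIs, at 6445 and 7002 CPM. In neutrophil-like cells, with 99 Ctrl and 36 dKO cells, Ctsd was the highest of the 9 genes in both libraries (994 and 1717 CPM), above Ctsb (767 and 691 CPM). Their Ctss stood at 0.518 and 0.453 UMIs per Ctsb UMI, against 0.403 and 0.506 over all kept cells, and their 19 MO/MP marker genes summed to 8214 and 8974 CPM, and the part of MO/MP RNA in these levels was not tested. MuSC-like cells, the class in which Yy1 was deleted, had 1293 CPM of the 9 genes in Ctrl (117 cells) and 1079 CPM in dKO (30 cells). Their Ctsl had a log2 ratio of -0.63 and Ctsd one of 0.29, and 3 cells held 55.5% of the 236 Ctsl UMIs in dKO. Of the class's markers, the stem cell gene Pax7 was detected in 58.1% of Ctrl and 36.7% of dKO cells, Cdh15 had 213 and 66.3 CPM and Myod1 287 and 289 CPM. Genes of differentiating muscle cells, Myog and Mymx, were among the leading genes of the cluster, and the part of the mix of stem and differentiating cells in these ratios was not tested. Their 19 MO/MP marker genes summed to 465 CPM in Ctrl and 113 CPM in dKO, beside 57 and 3 UMIs of Ctss, and the part of those genes in the result was not tested.

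The genes that follow were chosen after their values were seen. Among cathepsins outside the 9, Ctsg, a neutrophil granule protease, had 203 CPM in Ctrl and 0 UMIs in dKO cycling MO/MP-like cells, and Ctsw, known from cytotoxic lymphocytes, had 185 and 159 CPM in T cell-like cells. Ctsf had its highest levels in tenocyte-like cells, at 79 and 99 CPM. The inhibitor genes Stfa1 and Stfa2l1 had 210 and 230 CPM in Ctrl neutrophil-like cells, and 0 and 313 CPM in those of dKO.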
